A study of Homo sapiens and Canis lupus familiaris with 27 samples.

Results

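Condensin is a ring-shaped ATPase that folds and compacts chromosomes before cells divide. The genes described here are the 8 genes of its subunits together with TOP2A and MKI67, which encode 2 further proteins of the mitotic chromosome. They were chosen by name, with earlier results of these data known, and all 10 were listed among the 23708 genes of the PC-3 and LNCaP count tables and among the 16028 genes of the CT1258 table. All 10 passed the filter on low counts in each cell line, with between 221 and 12879 reads per gene and sample. PC-3 is an androgen-independent and LNCaP an androgen-sensitive human line, both grown from metastases of prostate adenocarcinoma, and CT1258 is a canine prostate carcinoma line. Cells were treated with the indolylmaleimide PDA-66 at 15 µM for 12 h or 24 h, or with 0.15% DMSO as the vehicle. The DMSO samples are labelled with 24 h, and those of a line served as the control of both time points. After 12 h, PDA-66 and the time in culture therefore cannot be told apart. Groups held 3 samples, except that PC-3 had 2 DMSO samples here (replicates 2 and 3). The medium differed between the lines (DMEM/Ham's F-12 for PC-3, RPMI medium for LNCaP, medium 199 for CT1258), so that cell line and medium cannot be told apart. Each condition was studied in cultures of 1 line each. The methods of the study call the replicates of a condition biological and independent, without saying what was repeated, and p-values measure the spread between these samples only.

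SMC2 and SMC4 form the arms of both condensin complexes. Condensin I adds the kleisin NCAPH and the HEAT-repeat subunits NCAPD2 and NCAPG, lies in the cytoplasm until the nuclear envelope breaks down, and compacts chromosome arms sideways. Condensin II adds the kleisin NCAPH2 and the HEAT-repeat subunits NCAPD3 and NCAPG2, stays in the nucleus throughout the cell cycle and shortens chromosomes along their axis. TOP2A is the topoisomerase that untangles DNA strands in dividing cells, and MKI67 (Ki-67) coats the surface of mitotic chromosomes and keeps them apart. TOP2A, MKI67 and NCAPG are commonly read as proliferation genes in tumours, since their mRNA accumulates towards G2 and mitosis.

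Promoters of genes of this kind often carry 2 short motifs, TTTGAA, the core of the CHR element bound by the DREAM and MuvB complexes, and CCAAT, the NF-Y box. The 250 bases before the start of transcription are shown for the 4 genes that hold TTTGAA and whose values the results turn on most. The sequences are those of RefSeq on GRCh38.p14, written 5′ to 3′ on the strand of the gene, with TTTGAA and CCAAT on either strand in capitals (TTCAAA and ATTGG on the other strand). NCAPG is at chr4:17810729-17810978 (plus strand), MKI67 at chr10:128126424-128126673 (minus strand, where TTTGAA and ATTGG overlap once), NCAPD2 at chr12:6493852-6494101 (plus strand) and TOP2A at chr17:40417897-40418146 (minus strand).
NCAPG: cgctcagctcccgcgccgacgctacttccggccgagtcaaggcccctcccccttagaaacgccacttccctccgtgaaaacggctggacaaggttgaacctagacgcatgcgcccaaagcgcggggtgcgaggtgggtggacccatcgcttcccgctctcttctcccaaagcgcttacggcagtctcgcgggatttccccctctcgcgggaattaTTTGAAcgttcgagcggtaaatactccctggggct
MKI67: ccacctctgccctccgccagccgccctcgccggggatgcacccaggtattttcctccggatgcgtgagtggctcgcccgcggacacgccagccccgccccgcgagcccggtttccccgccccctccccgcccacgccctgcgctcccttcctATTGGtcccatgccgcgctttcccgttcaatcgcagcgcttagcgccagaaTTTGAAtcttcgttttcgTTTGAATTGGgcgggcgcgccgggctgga
NCAPD2: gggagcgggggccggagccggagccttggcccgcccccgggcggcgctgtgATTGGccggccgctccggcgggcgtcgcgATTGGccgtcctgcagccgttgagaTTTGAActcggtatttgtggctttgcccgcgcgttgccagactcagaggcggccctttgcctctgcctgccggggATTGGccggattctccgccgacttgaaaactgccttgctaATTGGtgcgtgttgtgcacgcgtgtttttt
TOP2A: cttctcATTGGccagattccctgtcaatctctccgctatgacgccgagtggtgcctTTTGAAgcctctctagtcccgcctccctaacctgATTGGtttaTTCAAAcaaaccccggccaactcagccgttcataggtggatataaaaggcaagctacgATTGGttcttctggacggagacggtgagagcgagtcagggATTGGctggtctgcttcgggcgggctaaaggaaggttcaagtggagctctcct
The promoter table held 9 of the 10 genes, all but NCAPH2. It lists 12 promoters for the 9, since a gene can have more than 1 start. TTTGAA was found in 5 of the 12 promoters, 1 each of SMC4, NCAPG, MKI67, NCAPD2 and TOP2A, compared with 13.3% of all 35116 human promoters of the same length. CCAAT was found in 5 of the 12, 1 each of NCAPH, MKI67, NCAPD3, NCAPD2 and TOP2A, compared with 32.0% of all promoters. The first number depends on the window, since TTTGAA was found in 8 of the 12 (15.2% of all promoters) and CCAAT in 5 of the 12 (34.6%) when the 50 bases after the start were included. Both motifs stood in the promoters of MKI67, NCAPD2 and TOP2A, while SMC2 and NCAPG2 held neither in this window. A match of letters is a description and not a bound site, and the canine promoters were not analysed here.

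Total counts per sample ranged from 14.65 M to 18.09 M for PC-3, from 11.92 M to 14.74 M for LNCaP and from 7.2 M to 20.98 M for CT1258, where the DMSO samples had 2.64 times the counts of the PDA-66 samples. LNCaP varied most between replicates, with a biological coefficient of variation of 0.240, while PC-3 had 0.0971 and CT1258 0.100. The LNCaP sample PDA-66 12 h replicate 2 stood apart, with a GC content, weighted by expression, of 51.7% compared with 47.6% to 48.6% in the other LNCaP samples. In CT1258 the same measure was between 50.1% and 50.7% in the DMSO samples and between 47.6% and 48.7% in the PDA-66 samples. Total counts and this measure thus cannot be told apart from treatment in CT1258. The results that rest on these samples are therefore also given without that LNCaP sample or after a correction for GC content and length, both chosen after the data were seen. LNCaP expressed the luminal marker KLK3 at 23.7 to 68.2 CPM and had 8 of 8 markers of leucocytes, endothelium and fibroblasts under 1 CPM. PC-3 had KLK3 under 1 CPM, and PECAM1 alone among the markers of other cells exceeded 10 CPM in any of its samples. Of the canine table, 1 of 4 epithelial markers was listed, EPCAM, and it stayed under 1 CPM, while the fibroblast marker LUM was at 262 to 429 CPM, so that an epithelial identity of CT1258 was not visible in these markers. The part of these differences in the results below was not tested.

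Most calls among the 10 genes after PDA-66 were upwards. A gene was called at an adjusted p-value under 0.001, by the quasi-likelihood F test of edgeR with Benjamini-Hochberg adjustment over all genes tested. In PC-3, 5 of the 10 genes rose after 12 h, where 13.0% of all genes tested rose, and 7 of 10 after 24 h, where 8.88% rose. Under 0.05, 9 of the 10 rose at both times in PC-3, against 28.3% and 24.3% of all genes. In CT1258, 8 of 10 rose and 2 fell after 12 h, against 22.2% and 22.1% of all genes, and 8 rose and 1 fell after 24 h, against 16.6% and 17.2%. In LNCaP, edgeR called 0 of 10 at this threshold at either time (0.00760% and 0.00% of all genes), while 9 and 8 of the 10 passed 0.05 without adjustment (30.0% and 19.8% of all genes in either direction). The DESeq2 Wald test called 5 and 3 of them in LNCaP (4.71% and 2.17% of all genes), and limma voom with sample quality weights called 9 and 8 (13.9% and 11.2%). At an adjusted p-value under 0.05, the threshold used for LNCaP from here on, 6 of 10 rose after 12 h (4.52% of all genes rose) and 3 of 10 after 24 h (1.35%). Without PDA-66 12 h replicate 2, 10 of 10 passed 0.05 upwards in LNCaP after 12 h and 10 of 10 after 24 h, where 29.1% and 27.9% of all genes passed it in either direction. The median log2 fold change of the 10 genes after 12 h and 24 h was 0.65 and 0.76 for PC-3, 1.24 and 1.11 for LNCaP, and 1.38 and 1.44 for CT1258. The median over all genes tested was between -0.01 and 0.03 in these comparisons. In RNA of whole cultures, more cells in a phase of the cycle and more RNA per cell cannot be told apart.

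**Figure D1:**
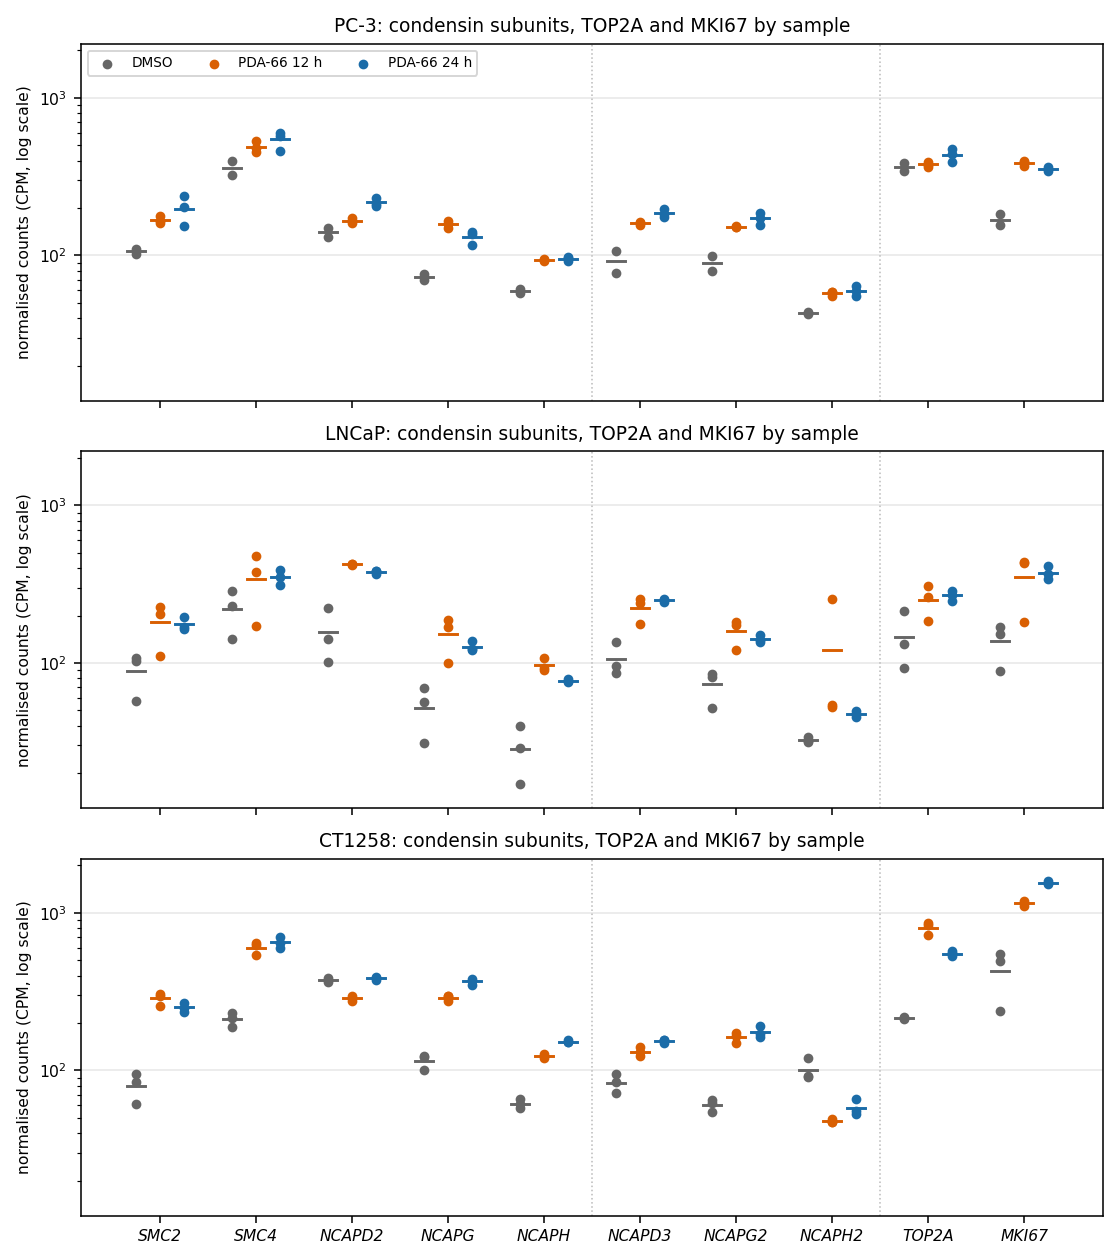
CPM of each of the 10 genes (vertical axis, logarithmic) in every sample of PC-3, LNCaP and CT1258, grouped by treatment and time. Points are samples and short lines are group means. The PDA-66 samples lie above the DMSO samples for most genes, the CT1258 points of NCAPH2 lie below them (46.8 to 65.8 CPM against 91.5 to 119), and PC-3 TOP2A overlaps after 12 h.

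The PDA-66 samples did not overlap the DMSO samples, and lay above them, for 9 of 10 genes in PC-3 after 12 h and for 10 of 10 after 24 h. Over all genes tested, 35.5% and 30.6% showed such a gap upwards in PC-3. In LNCaP the numbers were 8 of 10 and 10 of 10 (13.5% and 23.1% of all genes), and in CT1258 8 of 10 at both times (36.1% and 33.1%). TOP2A after 12 h was the PC-3 exception, and SMC4 and TOP2A after 12 h were the LNCaP exceptions.

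The shared arms SMC2 and SMC4 had their largest log2 fold changes in CT1258. Their difference from LNCaP was called only after 12 h, and not after the correction for GC content. SMC2 (chr9:106856541-106903700, plus strand, GRCh37) was at 84.1, 61.5 and 94.8 CPM in the DMSO samples of CT1258, at 305, 297 and 258 CPM after 12 h and at 236, 249 and 269 CPM after 24 h. Each PDA-66 sample thus exceeded the highest DMSO sample. The log2 fold change was 1.84 ± 0.13 (SE, adjusted p = 6.56e-08) at 12 h, followed by 1.65 ± 0.13 (adjusted p = 2.77e-07) at 24 h. SMC4 (chr3:160117062-160152742, plus strand), its partner in the ring, went from 187 to 231 CPM in the DMSO samples to 541 to 641 CPM after 12 h and 595 to 705 CPM after 24 h. Its log2 fold changes of 1.51 ± 0.10 and 1.62 ± 0.10 both passed the threshold. After the correction for GC content these were 0.83 and 1.07, and those of SMC2 were 1.18 and 1.13, all still called. In PC-3, SMC2 was at 103 and 110 CPM with DMSO, at 162 to 178 CPM after 12 h and at 154 to 237 CPM after 24 h. It rose after 24 h (log2 fold change 0.90 ± 0.15, adjusted p = 2.72e-04) and did not reach the threshold after 12 h (0.67 ± 0.15, adjusted p = 0.00172). SMC4 in PC-3 was higher by 0.44 (adjusted p = 0.0113) and 0.59 (adjusted p = 0.00236) on the log2 scale, without a call. With the correction for GC content, SMC2 after 12 h (0.55, adjusted p = 2.49e-04) and SMC4 after 24 h (0.50, adjusted p = 2.51e-04) were called in PC-3. SMC4 after 12 h was still not called there. In LNCaP neither arm passed 0.05, at log2 fold changes of 1.02 and 0.98 for SMC2 (adjusted p = 0.0646 and 0.112) and 0.64 and 0.68 for SMC4 (adjusted p = 0.254 and 0.332). After the correction for GC content these were 1.15 and 1.00 for SMC2 and 0.73 and 0.71 for SMC4, all under 0.05. The corrected differences between LNCaP and CT1258 after 12 h were -0.12 for SMC2 (adjusted p = 0.708) and -0.19 for SMC4 (adjusted p = 0.554). SMC4 was at 228, 287 and 141 CPM in the LNCaP DMSO samples and at 475, 172 and 375 CPM after 12 h, so that replicate 2 lay inside the range of the controls.

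Among the subunits of condensin I, NCAPG and NCAPH rose in all 3 cell lines, and NCAPD2 did not. NCAPG (chr4:17812602-17846488, plus strand), a HEAT-repeat subunit, was at 69.9 and 76.0 CPM in PC-3 with DMSO, at 165, 149 and 159 CPM after 12 h and at 142, 137 and 116 CPM after 24 h. This was the second largest change of the 10 genes in PC-3 after 12 h, with a log2 fold change of 1.11 ± 0.11 (adjusted p = 2.96e-06), followed by 0.85 ± 0.11 after 24 h. In LNCaP, NCAPG was at 56.2, 69.2 and 30.9 CPM with DMSO, at 188, 99.5 and 170 CPM after 12 h and at 121, 138 and 122 CPM after 24 h. It rose after 12 h (1.55 ± 0.31, adjusted p = 0.0192) and missed 0.05 after 24 h (1.28 ± 0.31, adjusted p = 0.0598), although the groups did not overlap at either time. In CT1258, NCAPG went from 101 to 123 CPM to 277 to 298 CPM after 12 h and 351 to 381 CPM after 24 h (log2 fold changes 1.33 ± 0.09 and 1.67 ± 0.09). After the correction for GC content these were 0.72 and 1.18, both still called. NCAPG shares 33.7% of its exon bases with LCORL on the opposite strand, and whether the counting used the strand is not given in the sources used here.

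NCAPH (chr2:97001504-97042829, plus strand), the kleisin that closes the condensin I ring, had the lowest adjusted p-value of the 10 genes in LNCaP after 12 h. It was at 39.8, 28.7 and 17.1 CPM with DMSO, at 92.6, 107 and 89.6 CPM after 12 h and at 77.2, 79.1 and 75.4 CPM after 24 h. The lowest PDA-66 sample lay well above the highest control, and the log2 fold change was 1.76 ± 0.27 (adjusted p = 0.00817) at 12 h and 1.44 ± 0.27 (adjusted p = 0.031) at 24 h. NCAPH also rose in PC-3, from 58.1 and 61.7 CPM to 92.0 to 94.9 CPM after 12 h and 92.5 to 98.3 CPM after 24 h, which is 0.64 ± 0.09 and 0.67 ± 0.09 on the log2 scale. In CT1258 its log2 fold changes were 1.01 ± 0.08 and 1.31 ± 0.08, from 57.6 to 65.8 CPM with DMSO.

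NCAPD2 (chr12:6602522-6641121, plus strand), the other HEAT-repeat subunit of condensin I, went in opposite directions in LNCaP and CT1258 after 12 h. In LNCaP it was at 224, 143 and 102 CPM with DMSO, at 418, 425 and 426 CPM after 12 h and at 384, 382 and 367 CPM after 24 h. It rose by 1.43 ± 0.25 (adjusted p = 0.0115) and 1.27 ± 0.25 (adjusted p = 0.0339) on the log2 scale. In CT1258 it was at 365, 385 and 374 CPM with DMSO, at 276, 295 and 290 CPM after 12 h and at 392, 376 and 383 CPM after 24 h. NCAPD2 thus fell by 0.38 ± 0.07 on the log2 scale after 12 h (adjusted p = 3.22e-04) and differed by 0.03 ± 0.07 after 24 h (adjusted p = 0.694, 95% interval -0.12 to 0.19). The fall after 12 h was small and was no longer called without CT1258 DMSO replicate 3 or without any 1 of the CT1258 PDA-66 12 h samples (adjusted p-values up to 0.00343), and with the correction for GC content it was 0.28 (adjusted p = 6.08e-04). In PC-3, NCAPD2 was at 150 and 130 CPM with DMSO, at 161, 173 and 165 CPM after 12 h and at 206, 214 and 233 CPM after 24 h. It was called there after 24 h (log2 fold change 0.63 ± 0.10, adjusted p = 2.21e-04) and not after 12 h (0.25 ± 0.10, adjusted p = 0.0483).

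In condensin II, NCAPD3 and NCAPG2 rose in each cell line, and the kleisin NCAPH2 fell in CT1258. NCAPD3 (chr11:134020008-134095398, minus strand) was at 106 and 77.4 CPM in PC-3 with DMSO, at 157, 162 and 162 CPM after 12 h and at 198, 184 and 176 CPM after 24 h. Its log2 fold change in PC-3 was 0.80 ± 0.12 (adjusted p = 1.14e-04) at 12 h and 1.02 ± 0.12 (adjusted p = 2.80e-05) at 24 h. In LNCaP it rose from 136, 95.8 and 86.1 CPM to 253, 176 and 239 CPM after 12 h and to 242, 256 and 251 CPM after 24 h (1.07 and 1.24 on the log2 scale, adjusted p = 0.0161 and 0.0243). Of the 3 genes that passed 0.05 in LNCaP after 24 h, the others being NCAPD2 and NCAPH, NCAPD3 had the lowest adjusted p-value. The CT1258 log2 fold changes of NCAPD3 were 0.65 ± 0.10 and 0.88 ± 0.10, the smallest rises of the 8 genes called upwards there. NCAPG2 (chr7:158423861-158497495, minus strand), the second HEAT-repeat subunit, was at 99.1 and 79.7 CPM in PC-3 with DMSO and at 151 to 186 CPM in the PDA-66 samples (0.76 and 0.95 on the log2 scale). In CT1258 it went from 54.8 to 65.1 CPM to between 149 and 192 CPM, which gave 1.42 ± 0.10 and 1.53 ± 0.10, and 0.92 and 1.13, both still called, after the correction for GC content. In LNCaP it rose after 12 h (1.12, adjusted p = 0.0189), and after 24 h the value was 0.95 (adjusted p = 0.0565).

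NCAPH2 (chr22:50946653-50963209, plus strand), the kleisin of condensin II, went down in CT1258 and lay higher after PDA-66 than with DMSO in the human lines. In CT1258 it was at 91.9, 119 and 91.5 CPM with DMSO, at 49.3, 46.8 and 47.2 CPM after 12 h and at 65.8, 55.5 and 52.6 CPM after 24 h. The groups did not overlap, and NCAPH2 fell by 1.08 ± 0.12 on the log2 scale after 12 h (adjusted p = 2.61e-06) and by 0.80 ± 0.12 after 24 h (adjusted p = 5.33e-05). After the correction for GC content it fell by 0.51 after 12 h (adjusted p = 1.45e-04), and the value after 24 h was -0.30 and no longer called (adjusted p = 0.00773). In PC-3 it was at 43.5 and 42.8 CPM with DMSO, at 55.7, 58.4 and 58.3 CPM after 12 h and at 59.2, 55.0 and 64.3 CPM after 24 h, all above both controls, with log2 fold changes of 0.41 and 0.46 that were not called (adjusted p = 0.00346 and 0.0021). After the correction for GC content these were 0.45 and 0.50, both called (adjusted p = 1.81e-04 and 1.09e-04). In LNCaP the DMSO samples lay close together at 34.1, 31.9 and 31.7 CPM. After 12 h replicates 1 and 3 were at 53.8 and 52.6 CPM and replicate 2 at 254 CPM, and after 24 h the samples were at 47.5, 49.8 and 45.1 CPM. A single sample thus set the log2 fold change of 1.88 ± 0.54 after 12 h (adjusted p = 0.0572). NCAPH2 has the highest GC content of the 10 transcripts, 61.3%, and shares 19.2% of its exon bases with SCO2 on the opposite strand and 19.2% with the gene ENSG00000272821 on the same strand.

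TOP2A (chr17:38544777-38574148, minus strand) had the largest change of the 10 genes in CT1258 after 12 h and the smallest in PC-3. In CT1258 it was at 214, 219 and 213 CPM with DMSO, at 859, 836 and 724 CPM after 12 h and at 554, 530 and 570 CPM after 24 h. This was 3.74-fold after 12 h (log2 fold change 1.90 ± 0.09, adjusted p = 1.32e-09) and 2.56-fold after 24 h. In PC-3 it was at 343 and 389 CPM with DMSO, at 393, 365 and 377 CPM after 12 h and at 475, 442 and 390 CPM after 24 h. No change of TOP2A was detected in PC-3 after 12 h (0.05 ± 0.11, 95% interval -0.18 to 0.28, adjusted p = 0.712), where the sign turned with the GC correction (-0.06) and without DMSO replicate 2 (-0.03), nor after 24 h (0.25 ± 0.11, adjusted p = 0.0646). In LNCaP it was at 132, 213 and 92.6 CPM with DMSO, at 308, 185 and 261 CPM after 12 h and at 248, 288 and 269 CPM after 24 h. The controls spread widely, and the log2 fold changes of 0.79 ± 0.29 and 0.88 ± 0.29 did not pass 0.05 (adjusted p = 0.117 and 0.134). The ratio of TOP2A to TOP2B, the other topoisomerase II, went from 0.917 ± 0.094 (SD, n = 3) in CT1258 DMSO samples to 2.72 ± 0.15 after 12 h and 2.19 ± 0.14 after 24 h. In LNCaP the ratio was 0.784 ± 0.19 with DMSO, 1.41 ± 0.046 after 12 h and 1.45 ± 0.042 after 24 h, while in PC-3 it was 1.69, 1.68 and 1.91.

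MKI67 (chr10:129894923-129924687, minus strand) had the largest change of the 10 genes in PC-3 at both times. It was at 182 and 156 CPM with DMSO, at 371, 393 and 397 CPM after 12 h and at 342, 352 and 365 CPM after 24 h. The log2 fold change was 1.20 ± 0.10 (adjusted p = 6.83e-07) at 12 h and 1.06 ± 0.10 (adjusted p = 3.91e-06) at 24 h. In CT1258, where the DMSO samples were at 492, 238 and 549 CPM, MKI67 was at 1185, 1157 and 1104 CPM after 12 h and at 1581, 1518 and 1545 CPM after 24 h (1.43 ± 0.21 and 1.86 ± 0.21). DMSO replicate 2 of CT1258 was low for this gene, and the PDA-66 samples exceeded the highest control. In LNCaP, MKI67 was at 170, 153 and 88.7 CPM with DMSO, at 428, 183 and 437 CPM after 12 h and at 367, 412 and 341 CPM after 24 h. It rose after 12 h (1.35 ± 0.34, adjusted p = 0.0395) and missed 0.05 after 24 h (1.44 ± 0.34, adjusted p = 0.0564).

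**Figure D2:**
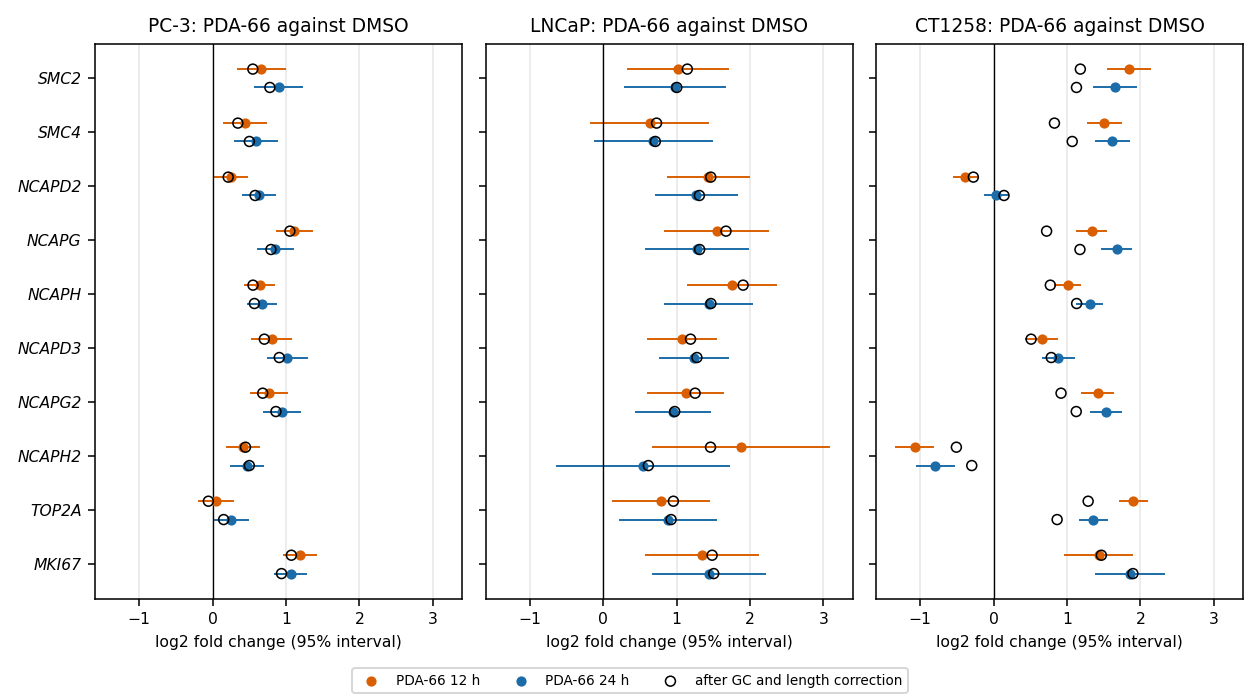
Log2 fold change of each gene against the DMSO samples after 12 h and 24 h in the 3 cell lines, with 95% intervals as bars, and open circles for the value after the GC and length correction. Genes are ordered by complex. The LNCaP bars are the longest (NCAPH2 0.68 to 3.08 after 12 h), and in CT1258 NCAPD2 after 12 h (-0.38) and NCAPH2 (-1.08 and -0.80) lie below 0.

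Between 12 h and 24 h few of the genes were called under 0.001. Without adjustment, 6 of the 10 genes passed 0.05 by the F test of edgeR in CT1258 (32.5% of all genes), and 7 did not overlap (46.1%). In CT1258, TOP2A fell by 0.55 ± 0.08 on the log2 scale from 12 h to 24 h (adjusted p = 7.06e-04), and it was the 1 gene of 10 called, against 2.13% of all genes tested. This call was lost without DMSO replicate 3, PDA-66 12 h replicate 1 or 2 or any 1 of the 24 h samples, while 5 of the 10 genes were called without DMSO replicate 2. Under 0.05, where 19.3% of all genes passed, NCAPD2 (0.42), NCAPG (0.34) and NCAPH (0.30) were higher at 24 h. MKI67 (0.43), NCAPH2 (0.28) and NCAPD3 (0.23) were also higher without overlap but did not pass 0.05 (adjusted p = 0.167, 0.128 and 0.127). The rise was thus not particular to condensin I, whose arm SMC2 was lower (-0.19, adjusted p = 0.333). With the GC correction NCAPD3 (0.27, adjusted p = 0.00772) and MKI67 (0.43, adjusted p = 0.0304) passed 0.05 too, while NCAPH2 did not. In PC-3, edgeR called 0 of 10 genes under 0.001 (1.41% of all genes) and NCAPD2 alone under 0.05 (10.1% of all genes, log2 fold change 0.39 ± 0.09, adjusted p = 0.0149). There, 2 genes had an unadjusted p-value under 0.05 by edgeR (24.5% of all genes), DESeq2 called 0 and limma voom 3 (share given below). In LNCaP, 0 of 10 passed 0.001 or 0.05 (0.00% of all genes) and 1 had an unadjusted p-value under 0.05 (6.36% of all genes), NCAPH2, and DESeq2 and limma voom called 0.

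The response to PDA-66 was compared between cell lines as the difference of the log2 fold changes, tested in 1 fit over the 11736 genes that passed the filter among those named in all 3 tables, with 0.05 as the threshold. The DMSO samples of each line enter both times. TOP2A responded less in PC-3 than in CT1258, by 1.87 ± 0.29 after 12 h (adjusted p = 3.96e-05) and by 1.11 after 24 h (adjusted p = 0.00849) on the log2 scale. It also responded less in LNCaP than in CT1258 after 12 h (difference -1.16, adjusted p = 0.0022), where the correction for GC content gave -0.42 and no call (adjusted p = 0.0881). NCAPD2 responded more in LNCaP than in CT1258, by 1.77 ± 0.23 after 12 h (adjusted p = 4.51e-06) and by 1.21 after 24 h (adjusted p = 6.76e-04), and more in LNCaP than in PC-3 after 12 h (PC-3 minus LNCaP -1.15 ± 0.24, adjusted p = 0.00149). NCAPH likewise responded more in LNCaP than in PC-3 after 12 h (PC-3 minus LNCaP -1.08 ± 0.25, adjusted p = 0.00346). NCAPH2 differed between CT1258 and both human lines after 12 h, by 1.48 ± 0.51 for PC-3 (adjusted p = 0.0312) and by 2.88 ± 0.48 for LNCaP (adjusted p = 8.61e-05), the latter with the sample at 254 CPM included. The fit takes 1 spread per gene over all 3 lines, so the LNCaP samples also enter the error for PC-3 against CT1258. In the fits per line, the SE of NCAPH2 after 12 h was 0.10 for PC-3 and 0.12 for CT1258. In all, 2 of 10 genes differed between PC-3 and LNCaP after 12 h (19.6% of all genes), 5 between PC-3 and CT1258 (30.1%) and 6 between LNCaP and CT1258 (40.2%). After 24 h the numbers were 0 (9.70%), 2 (21.2%) and 1 (21.1%). For PC-3 against LNCaP after 24 h, 3 of the 10 genes had an unadjusted p-value under 0.05 (23.5% of all genes), and limma voom called 3 (share given below). In this fit, the shares among the 10 genes thus lay above those of all genes for both comparisons with CT1258 after 12 h, and near or below them in the other 4 cases. The first of these depended on the processing. Leaving out 1 sample gave 2 to 5 genes for PC-3 against CT1258 and 4 to 7 for LNCaP against CT1258 after 12 h. With the GC correction the share for PC-3 against CT1258 lay below that of all genes. The share for LNCaP against CT1258 did so in a fit of those lines alone. The other cases depended on the processing too. For PC-3 against CT1258 after 24 h, the share lay far above that of all genes in a fit of those lines alone and by limma voom. For PC-3 against LNCaP after 12 h, it lay above by limma voom and with the GC correction. The 2 genes that differed between PC-3 and CT1258 after 24 h were TOP2A and SMC4, and SMC4 (-1.03, adjusted p = 0.0493) was not called when any 1 sample of either line was left out (adjusted p = 0.0545 to 0.221).

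GC content went along with several of these values. In CT1258 the log2 fold change after 12 h followed the GC content of the human transcripts of the same name across the 10 genes, with a Pearson r of -0.91 and a Spearman rho of -0.76 (n = 10 genes, which share the samples and are not replicates). The 4 genes under 40% GC (SMC4, SMC2, NCAPG and TOP2A) had a median log2 fold change of 1.67 and the 2 genes over 50% (NCAPD2 and NCAPH2) one of -0.73. Over all CT1258 genes the median went from 0.60 under 40% GC to -0.67 from 60% GC upwards. After 24 h the values were -0.86 and -0.60 across the 10 genes. With the correction for GC content and length, 8 of the 10 genes still rose in CT1258 at both times (36.7% and 27.1% of all genes were called in either direction), at a median log2 fold change of 0.80 and 1.10 in place of 1.38 and 1.44. MKI67, at 48.4% GC, was then the gene with the largest change in CT1258, at 1.47 and 1.90, and TOP2A was at 1.29 and 0.86. PC-3 showed no such order (Pearson r of -0.10 and -0.12), and in LNCaP the order ran the other way after 12 h (0.71) and was near 0 after 24 h (-0.06).

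**Figure D3:**
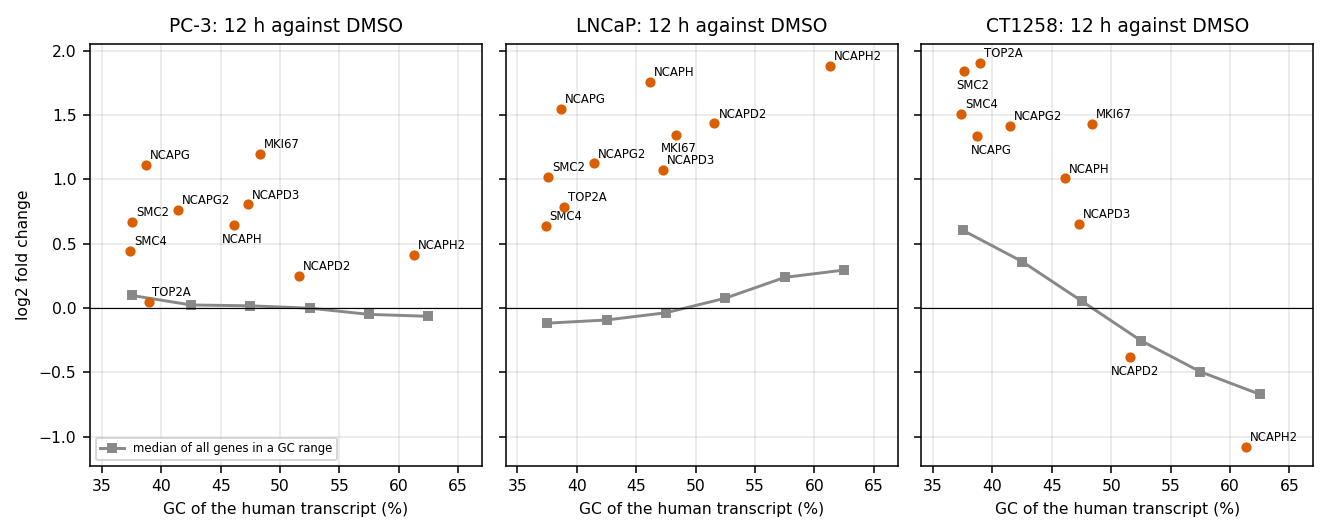
Log2 fold change of the 10 genes (vertical axis) against the GC content in percent of the human transcript of the same name (horizontal axis) in the 3 cell lines after 12 h, and the grey line gives the median of all genes in each GC range. In CT1258 the points go down from TOP2A (38.9% GC) to NCAPH2 (61.3% GC), and in PC-3 they do not follow the axis.

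LNCaP PDA-66 12 h replicate 2 had the lowest value of its group for 7 of the 10 genes and the highest for NCAPH2 and NCAPH. The mean log2 CPM over DMSO of the 2 genes above 50% GC exceeded that of the 4 genes under 40% GC by 1.89 in this sample, compared with -0.48 to 0.34 in the other LNCaP samples. Without it, the log2 fold changes of the 10 genes after 12 h were between 0.71 and 1.79, with a median of 1.29. With all samples and the GC correction instead, 10 of 10 genes passed 0.05 in LNCaP after 12 h (29.4% of all genes) and 9 of 10 after 24 h (17.5%), NCAPH2 being the exception. LNCaP DMSO replicate 3 was the lowest of its group for 10 of 10 genes, and NCAPH2 was the gene for which it differed least, 31.7 against 31.9 CPM.

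**Figure D4:**
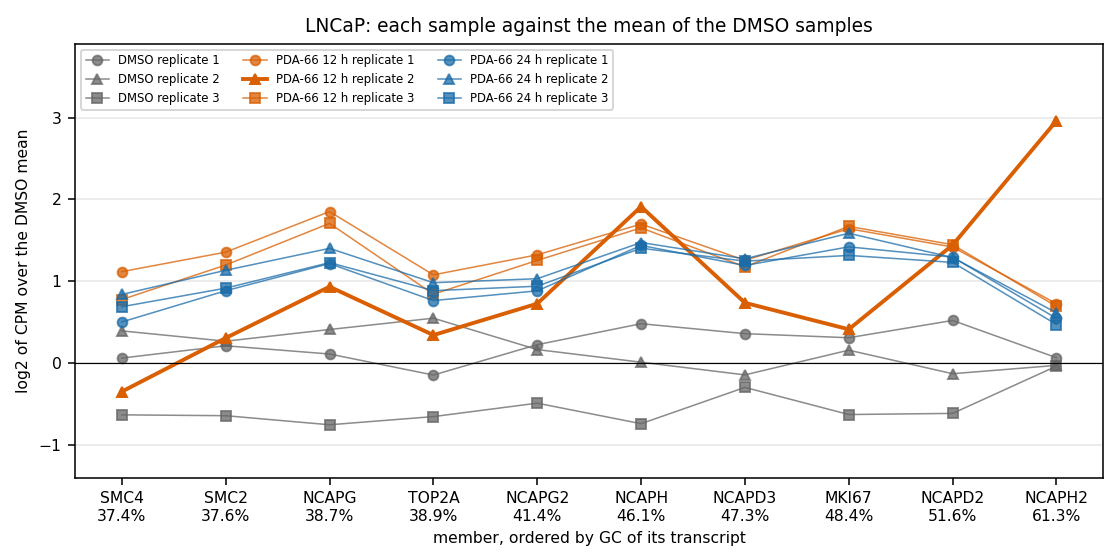
Log2 CPM over the mean of the DMSO samples for each gene in each LNCaP sample, with the genes ordered by the GC content of their transcripts and lines joining the values of a sample. PDA-66 12 h replicate 2 lies low for the genes of low GC content and high for NCAPH2, where it reached 254 CPM against 52.6 and 53.8 CPM in the other 12 h samples.

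With DMSO alone, TOP2A and NCAPH were higher in PC-3 than in LNCaP. The test over both lines, with 15018 genes, gave 2.56-fold for TOP2A (371.8 against 145.4 CPM, adjusted p = 1.93e-04) and 2.14-fold for NCAPH (60.9 against 28.5 CPM, adjusted p = 3.57e-04). These were 2 of 10 genes, against 40.8% of all genes called in either direction, and 0 of 10 were called without either 1 of the PC-3 DMSO samples. Per kilobase of transcript, SMC4 and TOP2A were the highest of the 10 genes in PC-3 with DMSO, at 67.4 ± 9.3 and 64.2 ± 5.7 CPM per kb (SD, n = 2), and did not differ beyond their spread. NCAPD2 followed at 29.0 ± 2.9, and NCAPH was the lowest at 9.94 ± 0.42. In LNCaP with DMSO, the order began with SMC4 (40.9 ± 14), NCAPD2 (32.4 ± 13) and TOP2A (25.6 ± 11), which overlapped, and ended with NCAPH at 4.73 ± 1.9 CPM per kb. After PDA-66, NCAPD2 was the highest in LNCaP, at 87.7 ± 0.95 CPM per kb after 12 h and 78.3 ± 1.9 after 24 h (SD, n = 3), though after 12 h its lowest sample (86.6) lay under the highest of SMC4 (88.7, mean 63.6 ± 29), while SMC4 stayed the highest in PC-3. NCAPH was the lowest of the 10 in each group of both human lines. Levels per length were not computed for CT1258, whose transcripts were not analysed here.

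The kleisins of both complexes moved apart in CT1258. The ratio of NCAPH2 to NCAPH, in CPM and therefore not a ratio of molecules, was 1.63 ± 0.16 (SD, n = 3) with DMSO, 0.386 ± 0.024 after 12 h and 0.380 ± 0.050 after 24 h, without overlap between DMSO and PDA-66 samples. In PC-3 the ratio went from 0.721 to 0.614 and 0.624, and in LNCaP from 1.28 ± 0.52 to 1.18 ± 1.0 and 0.615 ± 0.016. The ratio of NCAPD3 to NCAPD2 in CT1258 was 0.224 ± 0.036 with DMSO, 0.458 ± 0.028 after 12 h and 0.401 ± 0.0074 after 24 h. The ratio of NCAPG2 to NCAPG overlapped in CT1258, at 0.533 ± 0.085, 0.558 ± 0.020 and 0.476 ± 0.024. These ratios were not tested, and the GC contents of NCAPH2 and NCAPH (61.3% and 46.1%) and of NCAPD3 and NCAPD2 (47.3% and 51.6%) differ.

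The genes whose log2 CPM went most closely with the mean of the 5 condensin I genes (both arms included) over the samples of each line were DIAPH3, MELK, DEPDC1B, SKA3 and CENPI. The Pearson r, averaged over the 3 lines (8, 9 and 9 samples) and compared over 6376 genes, was 0.99 for DIAPH3, a formin, and 0.98 for MELK, a kinase, DEPDC1B, SKA3, a kinetochore protein, and CENPI, a centromere protein. These are descriptions, since all samples of a line share its treatment groups. Of the other genes of the set, NCAPG2 reached 0.98, NCAPD3 0.95, MKI67 0.94 and TOP2A 0.83, and TOP2A had its lowest value in PC-3 (0.68). NCAPH2 stood at 0.11, with 0.88 for PC-3, 0.36 for LNCaP and -0.90 for CT1258, and NCAPD2, itself 1 of the 5 genes, at 0.46, with -0.30 in CT1258.

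Other genes of chromosome structure were read from lists written from general knowledge, with the shares of all genes given above as the background. The share of all genes that fell in PC-3, not given above, was 14.6% after 12 h and 10.5% after 24 h. Of the cohesin list, which holds the ring that ties sister chromatids together and its regulators, 4 of 16 genes rose and 0 fell in PC-3 after 12 h, and 5 rose and 0 fell after 24 h, at a median log2 fold change of 0.30 and 0.32. The acetyltransferase ESCO2 led the list in PC-3 (log2 fold change 1.37 and 1.57), beside STAG1, a ring subunit (0.99 after 12 h), ESPL1, which encodes separase (0.91 and 0.80), and CDCA5, which encodes sororin (0.93 after 24 h). The others called, named after their values were seen, were CDCA5 after 12 h (0.79) and STAG1 (0.73) and the ring subunit SMC1A (0.69) after 24 h. In CT1258, 13 of 15 cohesin genes rose and 0 fell after 12 h, with medians of 0.83 for the list and 1.38 for the 10 condensin and chromosome genes, and 11 rose and 0 fell after 24 h (median 0.68). ESCO2 (2.39 and 2.15) and SGOL1, the protector of centromeric cohesion (2.03 at both times), had the largest changes, followed by PDS5A (1.14) after 12 h and PTTG1 (1.49) after 24 h. In LNCaP, 4 of 16 passed 0.05 upwards after 12 h, led by ESPL1 (2.15), CDCA5 (1.81) and ESCO2 (1.52), with SMC1A (1.04, named after its value was seen) the fourth, and 3 after 24 h, which were ESCO2 (1.58), ESPL1 (1.40) and SMC1A (0.79), and the list had medians of 0.20 and 0.37.

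Of the 15 genes that load, regulate or accompany condensin, 3 rose in PC-3 after 12 h, the phosphatase subunit CDCA2 (1.46), the chromokinesin KIF4A (0.74) and the histone demethylase PHF8 (0.71). CDCA2 (1.17) and KIF4A (0.79) rose there after 24 h, and 0 fell at either time (medians 0.38 and 0.42). In LNCaP, 8 of 15 passed 0.05 upwards after 12 h, led by the mitotic kinases AURKB (2.10), PLK1 (2.01) and CDK1 (1.82), and 3 after 24 h, CDK1 (1.70), CDCA2 (1.45) and ANP32E (0.83), at medians of 1.16 and 0.83. In CT1258, 6 of 14 rose and 0 fell after 12 h, and 10 rose and 1 fell after 24 h (medians 0.43 and 0.82). Cyclin B1 (CCNB1), the partner of CDK1 at entry into mitosis, changed most, by 3.01 and 3.71, beside CDK1 (1.81 and 1.63) and CDCA2 (1.67 and 2.10), and the gene that fell, named after its value was seen, was PPP1R10 (-0.63). From 12 h to 24 h, PLK1 (0.77) and CCNB1 (0.70) of this list and ESPL1 (0.52) of the cohesin list rose in CT1258, and PPP1R10 (0.67) rose in PC-3. Of the SMC5/6 and other SMC genes, SMC6 rose (0.89) and NSMCE4A (-0.85) and NSMCE1 (-0.58) fell in PC-3 after 12 h, of 8 tested, and SMC6 alone rose after 24 h (0.81), at medians of -0.19 and 0.04. In CT1258, 3 of 5 rose after 12 h (NSMCE4A 1.94, SMCHD1 0.80, SMC6 0.75) and 2 after 24 h (NSMCE4A 1.77, SMC6 0.45), while in LNCaP the 7 genes tested lay between -0.45 and 0.47 after 12 h without a call by edgeR.

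Genes of both S phase and G2/M moved beside the condensin genes, and their part in the result was not tested. In PC-3, 7 of 10 S phase genes rose after 12 h and 7 after 24 h, led by CCNE2 (1.70), RRM2 (1.58) and MCM5 (1.08) after 12 h and by RRM2 (1.56), TYMS (1.23) and MCM4 (1.12) after 24 h. Of 10 G2/M genes 4 rose after 12 h, CDC20 (1.29), BUB1 (1.04), CCNA2 (0.94) and, named after its value was seen, TPX2 (0.62), and 2 after 24 h, BUB1 (1.06) and CCNA2 (1.01). The medians were 0.94 and 0.77 for S phase and 0.67 and 0.52 for G2/M. In LNCaP, 9 and 6 of 10 S phase genes and 6 and 2 of 10 G2/M genes passed 0.05 upwards, at medians of 1.28 and 1.12 and of 1.34 and 1.12. The S phase genes were led by RRM2 (2.10), MCM2 (1.70) and MCM5 (1.57) after 12 h and by RRM2 (1.74), MCM4 (1.46) and MCM5 (1.23) after 24 h. The G2/M genes were led by AURKA (1.84), CCNA2 (1.80) and TPX2 (1.72) after 12 h, and the 2 after 24 h were TPX2 (1.36) and UBE2C (1.06). CT1258 differed between the times, with 7 S phase genes up after 12 h, led by CCNE2 (1.66), PCNA (0.93) and RRM2 (0.76), and with 2 up and 2 down after 24 h (MCM5 -0.66, MCM2 -0.53, TYMS 0.66 and, named after its value was seen, RRM2 0.44). In contrast, 8 of 9 G2/M genes rose at both times in CT1258, led by HMMR (3.30 and 3.44), AURKA (2.10 and 2.67) and CENPE (1.98 and 2.14). From 12 h to 24 h in CT1258, 3 G2/M genes rose further, BUB1 (0.87), CDC20 (0.79) and AURKA (0.57), and 2 S phase genes fell, MCM3 (-0.78) and PCNA (-0.66). TOP2A fell over this interval and NCAPG, NCAPH and NCAPD2 were higher at its end, as given above.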

How the data were processed

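Poly(A) RNA of the 3 cell lines was sequenced. The submitters' processing notes and the study's methods name STAR 2.3.1s with hg19 for the human reads, and BWA with CanFam3.1 for the canine ones. The authors deposited raw counts of reads per gene, without normalization. Of 27 labelled samples, 26 were analysed, and PC-3 DMSO replicate 1 was not analysed here. The numbers of 2 PC-3 PDA-66 12 h samples (P12-1 and P12-2) are not clear from the labels. Whether counting used the strand is not given in the sources used here.

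Low counts were removed by filterByExpr, TMM factors were applied, and groups were tested by the quasi-likelihood F test of edgeR 4.0.16 in R 4.3.3, in 1 fit of the 3 groups per cell line, over 13777 (PC-3), 13156 (LNCaP) and 9886 (CT1258) genes. CPM values are scaled by TMM. P-values were adjusted by the Benjamini-Hochberg method over all genes tested, with 0.001 as the threshold and 0.05 for LNCaP where said and for differences between lines. The scripts were tested on simulated data. Alternatives were DESeq2 1.42.0, limma 3.58.1 (voom with sample quality weights), other normalizations and filters, a replicate block, 1 sample left out, and, chosen after the data were seen, a spline correction for GC content and length. GC content, length and positions are those of GENCODE transcripts on GRCh37, matched by symbol to 90.12% (PC-3), 89.91% (LNCaP) and 87.73% (CT1258) of the genes tested, so that canine genes carry human GC values. Python 3.11.15 was used for tables and plots. All 10 genes were named in each comparison. From each other list the up to 3 genes with the largest absolute log2 fold change among those called were named, with others so marked. The genes and lists were chosen with earlier results of these data known. A single gene among the markers listed is not reported here.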

Additional observations from a re-analysis of the deposited data

Results flagged for a closer look

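In 16 cases, the response of a gene to PDA-66 differed between 2 cell lines by the test of the difference of the log2 fold changes (edgeR quasi-likelihood F test, adjusted p-value under 0.05 over 11736 genes), and all values here are such differences. Between PC-3 and LNCaP after 12 h, NCAPD2 (-1.15) and NCAPH (-1.08) responded less in PC-3. Between PC-3 and CT1258 after 12 h, TOP2A (-1.87), SMC2 (-1.19), SMC4 (-1.09) and NCAPG2 (-0.67) responded less in PC-3, and NCAPH2 (1.48), which fell in CT1258, had the higher value in PC-3. After 24 h this was the case for TOP2A (-1.11) and SMC4 (-1.03), both less in PC-3, with an adjusted p-value of 0.0493 for SMC4 that rose to between 0.0545 and 0.221 when any 1 sample of PC-3 or CT1258 was left out. Between LNCaP and CT1258 after 12 h, NCAPH2 (2.88), NCAPD2 (1.77) and NCAPH (0.70) had the higher value in LNCaP, and TOP2A (-1.16), SMC4 (-0.91) and SMC2 (-0.86) the lower one, and after 24 h NCAPD2 (1.21) had the higher value in LNCaP. With the correction for GC content and length, TOP2A, SMC2 and SMC4 were no longer called between LNCaP and CT1258 after 12 h, and NCAPD2, NCAPH and NCAPH2 were. The same correction ended the calls of SMC4 (-0.56, adjusted p = 0.0505) and NCAPG2 (-0.29, adjusted p = 0.225) between PC-3 and CT1258 after 12 h, and TOP2A, SMC2 and NCAPH2 were still called. Cell line, species, medium and aligner cannot be told apart in the comparisons with CT1258.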

How the results depend on the processing

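The directions of the log2 fold changes against DMSO held in all but 2 of 1210 alternatives, both for TOP2A in PC-3 after 12 h. Its log2 fold change was -0.057 with the GC and length correction and -0.031 without PC-3 DMSO replicate 2, against 0.049, and 0.154 without PC-3 DMSO replicate 3. The 1210 include the change of threshold to 0.05, which cannot turn a direction, and fits without a sample of the group outside the comparison. Counts of genes called moved by more than 1.5 times in 92 of 349. With an adjusted p-value under 0.05, 9 genes were called in PC-3 after 12 h, 1 between its times, 6 and 3 in LNCaP after 12 h and 24 h and 4 in CT1258 between its times. With 0.001 for differences between lines, 0, 1 and 2 genes were called after 12 h for PC-3 against LNCaP, PC-3 against CT1258 and LNCaP against CT1258, and 0 for PC-3 against CT1258 after 24 h. The DESeq2 Wald test and the edgeR likelihood ratio test each called 5 and 3 genes in LNCaP and 2 in CT1258 between its times (4.71%, 2.17% and 6.75% of all genes by the first, 4.34%, 1.96% and 7.38% by the second). Limma voom, which called more of all genes in these comparisons, called 9 and 8 in LNCaP (13.9% and 11.2% of all genes), 3 in PC-3 (16.8%) and 5 in CT1258 (21.0%) between the times, 7 and 3 for PC-3 against LNCaP (25.8% and 20.7%), 9 for PC-3 against CT1258 (40.5%) and 5 for LNCaP against CT1258 (49.0%) after 24 h. The GC and length correction gave 1 gene in LNCaP after 12 h under 0.001 (0.871%) and 10 and 9 under 0.05 (29.4% and 17.5%), 1 and 3 between the times in PC-3 (2.88%) and CT1258 (5.70%), 7 and 3 for PC-3 against LNCaP (30.3% and 21.7%), 3 and 4 for PC-3 against CT1258 (37.2% and 28.7%) and 3 for LNCaP against CT1258 after 24 h (25.3%). A fit of the groups compared alone called 4 genes in CT1258 between the times (12.0%), 9 for PC-3 against CT1258 after 24 h (39.3%) and 3 for LNCaP against CT1258 after 12 h (37.7%). For LNCaP against CT1258 after 24 h, DESeq2 size factors gave 3, library size alone 3 and no filter 2 genes, and for PC-3 against CT1258 after 24 h, library size alone and no filter gave 1. The cause of these shifts was not tested.

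Leaving out 1 sample at a time gave 5 to 6 genes in PC-3 after 12 h, 5 to 8 after 24 h and 0 between the times. In LNCaP it gave 0 to 4 and 0 to 1, both highest without PDA-66 12 h replicate 2, where 10 and 10 genes passed 0.05. CT1258 gave 9 to 10, 9 to 9 and, between its times, 0 to 5, with 5 without DMSO replicate 2 and 0 without DMSO replicate 3, PDA-66 12 h replicate 1 or 2 or any 1 of the 24 h samples. PC-3 against LNCaP gave 2 to 4 and 0 to 2, PC-3 against CT1258 2 to 5 and 0 to 1 (0 without PC-3 DMSO replicate 3), LNCaP against CT1258 4 to 7 and 1 to 5, and the DMSO levels 0 to 3. Where 1 PC-3 DMSO sample remained, it was assumed to vary like the other groups. The replicate numbers are not stated to pair samples, and same-numbered samples correlated between -0.42 and 0.19, so the block was fitted only as an alternative. With the replicate block, 4 of 7 genes were called in PC-3 after 24 h (SMC2, NCAPD2 and NCAPH were not), 9 of 10 in CT1258 after 12 h and 0 in CT1258 between its times, where TOP2A was lost. The PC-3 block was fitted to the DMSO and 24 h samples only, and PDA-66 24 h replicate 1 had no DMSO sample of its number. The block and the smaller fit therefore cannot be told apart in PC-3. No paired analysis was possible for the other 2 PC-3 comparisons because only number 3 of the 12 h samples is clear. Each value rested on 221 reads or more. Over all genes, samples of a group differed by more than the counting error, with a chi-square per degree of freedom of 1.57 to 216 for a pair of samples. For the 10 genes alone this was not tested.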
